A study of Mus musculus with 14 samples.

Results

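The 42 genes described here act in the cell division cycle: cyclins and their kinases, inhibitors of those kinases, the transcription factors that switch cell cycle genes on, the DNA replication machinery, and the kinases, motors and chromosome proteins of mitosis. They were chosen by symbol, as a list of 42 names, and every name matched 1 of the 37681 Ensembl genes in the table of counts. Of these 42 genes, 37 had enough reads to be tested between diets, among 17223 tested genes in all. The other 5, Cdc6, Ccnb1, Bub1, Ttk and Plk1, had between 3 and 46 counts per library. They are given as levels, with differences from a fit that kept genes of low count.

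RNA was measured in the liver of 14 mice, with polyadenylated RNA of each mouse sequenced as 1 library. Of these mice 7 ate food low in fat and sucrose (LFLS) and 7 ate food high in both (HFHS). No genetic change or drug is named for either group, and neither strain nor sex, age or time on the diet is given. The question the design asks is how liver transcripts differ between the diets. Levels are in CPM, counts set relative to the library total after TMM scaling, and a difference is the log2 of HFHS over LFLS with its standard error (SE). A gene was called when its p-value, from edgeR's quasi-likelihood F test and adjusted by Benjamini-Hochberg over all 17223 genes, was under 0.05.

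Most hepatocytes of an adult liver rest outside the cell cycle and can return to it after injury or loss of tissue. A cell that enters the cycle makes D-type cyclins, whose kinases inactivate the Rb proteins and free E2F factors to transcribe the genes of DNA replication. Genes of mitosis come on later, from promoters bound by the DREAM complex in resting cells and by B-Myb and Foxm1 in dividing ones. Proteins of both phases are also used outside division, since Pcna and several MCM proteins take part in DNA repair and cyclin D1 is controlled by feeding.

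Library totals ran from 18.2 M to 52.8 M counts, the median being 29.3 M (M, mega), so 1 count was worth 0.0179 to 0.0547 CPM. The first number of the sample title was 1 for LFLS 1 to 4 and HFHS 1 to 4 and 2 for the other 3 libraries of each diet. Its meaning is not in the labels. Libraries that shared it deviated together, with a mean correlation of 0.129 across diets against -0.134 for libraries of different numbers, so differences within each title number are given beside the pooled ones. Across all tested genes 484 were called, 236 higher and 248 lower on HFHS. Hepatocyte markers such as albumin, apolipoproteins and transthyretin summed to between 65889 and 133265 CPM in every library, as the label liver implies. Whole tissue was sequenced, so a change in the number of cells of a kind and a change in RNA per cell cannot be told apart.

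Among the 37 tested members, the largest differences between diets were in the spindle and chromosome genes. All 9 of these had higher values on HFHS, although only 1 passed the test. Of the members below the filter, fitted without it, Bub1 differed by 1.30, Ttk by 1.04 and Ccnb1 by 1.04. Plk1 differed by 0.02 and Cdc6 by -0.10. The 7 tested replication genes differed by -0.30 to 0.20. Cenpf, a large protein of the kinetochore, the structure that ties chromosomes to the spindle, was the only member called, and it was 1.96-fold higher on HFHS. This is 1 of 37 tested members against 2.81% of all tested genes called in either direction and 1.37% called higher. It was also the only member whose 7 HFHS values all lay above the 7 LFLS values, a pattern found in 0.854% of tested genes. No member was called lower, against 1.44% of all tested genes. An unadjusted p under 0.05 was reached by 13 of the 37 members, or 35.1%, against 19.6% of all tested genes.

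Differences were above 0 for 33 of the 37 tested members and below 0 for 4, with a median of 0.32 and a range from -0.30 to 1.07. Over all tested genes 48.7% were above 0 and the median was -0.01. Passing the filter on low counts depends on the level in the higher group, so the same was read from the fit without that filter: all 42 members had a value there, 37 above 0 and 5 below, with a median of 0.29 against 47.8% of all genes above 0. By role the medians of the tested members were as follows, with no test between roles. Members below the filter are not in these medians. The median was 0.88 over 9 spindle and chromosome genes, 0.67 over the 2 transcription factors and 0.56 over Ccna2, Ccnb2 and Cdk1. For 5 mitotic kinases and checkpoint genes it was 0.47, and for 6 G1 cyclins and kinases 0.32. It was 0.26 over 3 kinase inhibitors, 0.24 over 2 genes of nucleotide synthesis and 0.11 over 7 replication genes. Leaving out HFHS 1 brought the median of all tested members to 0.23, leaving out LFLS 5 brought it to 0.50, and leaving out both brought it to 0.31.

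**Figure D1:**
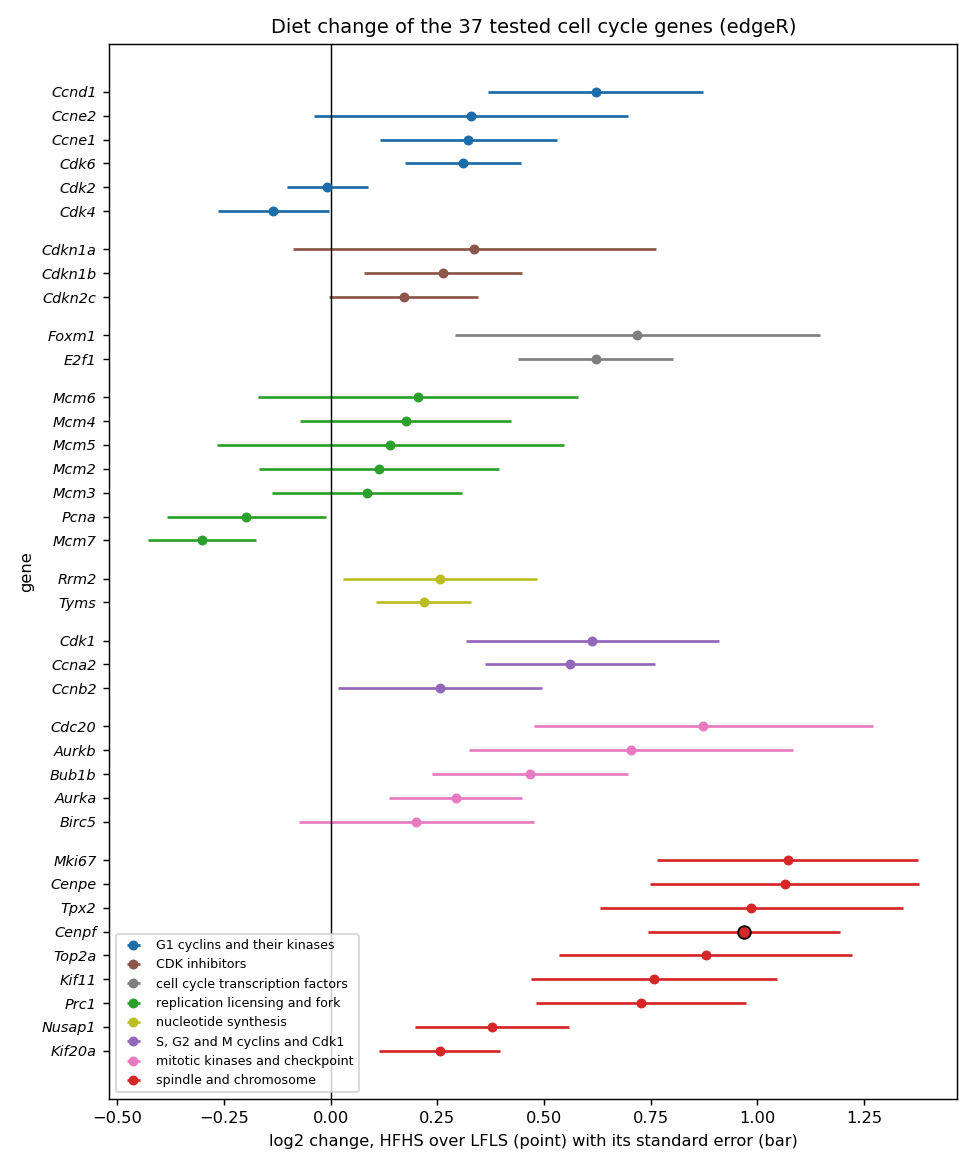
Difference in log2 CPM, HFHS over LFLS, with SE, for the 37 tested members grouped by role on the vertical axis; Cenpf, at 0.97, is the called member. The 9 spindle and chromosome genes all lie above 0, and the 7 replication genes lie between -0.30 and 0.20.

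Among the genes of entry into the cycle, Ccnd1, the cyclin D1 gene that links growth signals to the Rb proteins, had 18.6 to 58.5 CPM with a median of 38.6 on LFLS and 35.3 to 75.5 CPM with a median of 57.4 on HFHS. Its mean was 37.9 ± 15.2 on LFLS against 58.1 ± 15.8 on HFHS (SD, n = 7 each). The ranges overlapped, although 6 of 7 HFHS libraries lay above the LFLS median. The difference was 0.62 ± 0.25 (SE), with an adjusted p of 0.188 in edgeR's quasi-likelihood test.

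Cdk4, the kinase that cyclin D activates, had 75.5 to 155 CPM on LFLS with a median of 134 and 106 to 128 CPM on HFHS with a median of 117. Both the lowest and the highest library were on LFLS, LFLS 1 and LFLS 7. The difference was -0.13 ± 0.13 (SE), with an adjusted p of 0.597 from edgeR. Reads of Cdk4 may include some of its neighbour Tspan31, whose gene overlaps it and cannot be separated without strand. Cdk6, the sister kinase, differed by 0.31 and Cdk2, the partner of cyclin E, by -0.01, and neither was called.

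Of the E cyclins, which start DNA synthesis with Cdk2, Ccne1 differed by 0.32 with an adjusted p of 0.401. Ccne2 separated the LFLS libraries by title number. It had 0.89 to 2.81 CPM in LFLS 1 to 4 and 5.86 to 7.01 CPM in LFLS 5 to 7, with no overlap, while the HFHS libraries lay at 3.88 to 6.42 CPM. The diet difference was 1.22 within title number 1 and -0.22 within title number 2, and 0.33 ± 0.37 (SE) over all libraries, with an adjusted p of 0.653. The interaction of diet and title number was -1.43 with an unadjusted p of 0.00197 and an adjusted p of 0.0668 in edgeR. No member passed that interaction test, which called 152 genes or 0.883% of those tested.

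The inhibitors of these kinases gave no called difference. Cdkn1b, which encodes p27 and holds resting cells out of the cycle, had 7.96 to 25.5 CPM with a median of 19.0 on LFLS and 19.4 to 23.8 CPM with a median of 22.5 on HFHS. The HFHS range lay inside the LFLS range, and LFLS 1 was the low library. The difference was 0.26 ± 0.19 (SE) with an adjusted p of 0.456 by edgeR, at 0.65 within title number 1 and -0.13 within title number 2. Cdkn2c, the gene of the Cdk4 and Cdk6 inhibitor p18, differed by 0.17, and by -0.02 without HFHS 1.

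Cdkn1a, the p53 target that encodes p21, fell into high and low libraries on both diets. It had 11.9 CPM in LFLS 5, 12.4 in LFLS 7, 14.0 in HFHS 1, 11.4 in HFHS 5 and 14.4 in HFHS 6. In the other 9 libraries it ranged from 2.28 to 6.08 CPM. The high libraries were 2 of 7 on LFLS and 3 of 7 on HFHS, and the diet difference was 0.34 ± 0.43 (SE) with an adjusted p of 0.694 in the quasi-likelihood test, and 0.15 without HFHS 1.

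E2f1, the activator of replication genes, had 2.37 to 5.13 CPM with a median of 2.88 on LFLS and 3.91 to 6.13 CPM with a median of 4.35 on HFHS. All 7 HFHS libraries lay above the LFLS median, and the groups overlapped through LFLS 1, at 5.13 CPM, the highest on its diet. Means were 3.15 ± 0.940 (SD, n = 7) and 4.87 ± 0.996 (SD, n = 7). The difference was 0.62 ± 0.18 (SE), with an adjusted p of 0.0760 from edgeR. It was 0.53 within title number 1 and 0.81 within title number 2. The call changed with the setting: the adjusted p was 0.0127 without LFLS 1, 0.0383 with the title number as a block and 0.00664 by limma voom. Its gene overlaps Necab3. Foxm1, the activator of mitotic genes, had 0.143 to 1.75 CPM on HFHS with its highest value in HFHS 1, and differed by 0.72 ± 0.43 (SE) with an adjusted p of 0.366, or by 0.21 with 0.781 when HFHS 1 was left out.

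The replication genes in the list are the 6 subunits of the MCM helicase, which unwinds DNA at the fork, Cdc6, which loads the helicase, and Pcna, the clamp that holds DNA polymerase on its template. Promoter sequence is shown for 2 subunits whose levels turned on a single library. The 300 bases run from 250 before to 50 after the RefSeq start of the gene in build GRCm38.p6, at chr8:75109259-75109558 on the plus strand for Mcm5 and chr1:128359656-128359955 on the minus strand for Mcm6. Capitals mark matches, on either strand, to the E2F site letters (TTCCCGC or TTGGCGC or TTCGCGC or TTGCCGC), the CCAAT box (CCAAT) and the element of mitotic promoters called CHR (TTTGAA or TTCGAA).
Mcm5: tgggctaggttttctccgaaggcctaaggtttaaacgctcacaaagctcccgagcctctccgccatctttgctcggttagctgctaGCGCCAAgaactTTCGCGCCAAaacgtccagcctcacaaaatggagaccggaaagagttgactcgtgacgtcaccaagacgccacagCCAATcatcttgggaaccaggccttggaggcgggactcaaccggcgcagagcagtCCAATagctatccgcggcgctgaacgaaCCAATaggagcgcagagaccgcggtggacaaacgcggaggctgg
Mcm6: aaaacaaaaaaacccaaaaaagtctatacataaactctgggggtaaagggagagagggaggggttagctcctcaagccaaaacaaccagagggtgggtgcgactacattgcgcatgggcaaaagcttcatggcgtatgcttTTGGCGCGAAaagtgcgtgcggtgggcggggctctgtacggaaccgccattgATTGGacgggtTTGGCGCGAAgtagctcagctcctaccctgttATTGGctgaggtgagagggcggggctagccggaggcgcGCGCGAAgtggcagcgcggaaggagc
E2F site letters occurred in 7 of 10 promoters of the replication and nucleotide synthesis members, against 9.57% of the 32851 promoters in the same RefSeq table.

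Mcm5 had 10.8 CPM in LFLS 5 and 1.71 to 2.93 CPM in the other 6 LFLS libraries, with 2.17 to 6.07 CPM on HFHS. Mcm6 had 15.3 CPM in LFLS 5, 2.67 to 4.67 CPM in the other LFLS libraries and 3.46 to 10.7 CPM on HFHS. In both, LFLS 5 was the highest of all 14 libraries and HFHS 5 the highest on HFHS. With all libraries the difference was 0.14 ± 0.41 (SE) for Mcm5, adjusted p 0.879, and 0.20 ± 0.37 (SE) for Mcm6, adjusted p 0.799. Without LFLS 5 and HFHS 1 it was 0.74 for Mcm5, adjusted p 0.114, and 0.72 for Mcm6, adjusted p 0.136, so neither was called by edgeR in either set.

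Of the other helicase subunits, Mcm2 differed by 0.11, Mcm3 by 0.09 and Mcm4 by 0.18, with adjusted p from 0.730 to 0.865. Mcm7 ran the other way, with a mean of 7.19 ± 1.24 CPM on LFLS against 5.84 ± 0.795 CPM on HFHS (SD, n = 7 each). It differed by -0.30, adjusted p 0.204. Reads of Mcm7 may include those of Ap4m1, which overlaps it.

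Pcna had 5.98 to 14.2 CPM with a median of 7.64 on LFLS and 6.01 to 8.98 CPM with a median of 7.46 on HFHS. LFLS 1 was the high library and the groups overlapped. The difference was -0.20 ± 0.19 (SE) with an adjusted p of 0.589 in edgeR's test, and limma voom gave 0.13, the opposite sign. Cdc6, below the filter, had 0.921 CPM in LFLS 5 and 0.107 to 0.441 CPM in the rest.

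Neither gene of nucleotide synthesis was called. Rrm2, the subunit of ribonucleotide reductase that is made in S phase, had 2.72 to 8.98 CPM with a median of 3.84 on LFLS and 3.53 to 6.56 CPM with a median of 5.87 on HFHS. The highest library was LFLS 6. The difference was 0.26 ± 0.23 (SE), with an adjusted p of 0.562 from the quasi-likelihood test. Tyms, the thymidylate synthase gene, differed by 0.22 with an adjusted p of 0.298.

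Ccna2, cyclin A2, which drives S phase and the entry into mitosis, had 1.65 to 3.76 CPM with a median of 2.77 on LFLS and 2.67 to 5.35 CPM with a median of 4.11 on HFHS. The groups overlapped, with HFHS 1 highest. Means were 2.82 ± 0.851 (SD, n = 7) and 4.14 ± 0.807 (SD, n = 7). The difference was 0.56 ± 0.20 (SE), adjusted p 0.136, and it was 0.94 within title number 1 and 0.19 within title number 2. The call was gained with the title number as a block, adjusted p 0.0468, and by limma voom, adjusted p 0.0208. The gene overlaps Exosc9, a subunit of the RNA exosome.

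Cdk1, the kinase that starts mitosis, differed by 0.61 ± 0.30 (SE) with an adjusted p of 0.267, at 1.17 within title number 1 and 0.10 within number 2. Its partner Ccnb2, cyclin B2, differed by 0.26 with an adjusted p of 0.582, and by 0.08 without HFHS 1. Ccnb1, cyclin B1, was below the filter and had 0.0715 to 0.401 CPM on LFLS and 0.178 to 0.630 CPM on HFHS. The highest of all 14 libraries was HFHS 1 for Ccna2, Cdk1, Ccnb2 and Ccnb1.

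Aurka, the Aurora A kinase of the spindle poles, had 1.33 to 2.09 CPM with a median of 1.64 on LFLS and 1.46 to 2.49 CPM with a median of 2.35 on HFHS. These ranges overlapped. The difference was 0.29 ± 0.16 (SE) with an adjusted p of 0.313 in edgeR, and reads of the overlapping gene Cstf1 may be included. Bub1b, which encodes the checkpoint kinase BubR1, differed by 0.47 and Aurkb, Aurora B, by 0.70. Birc5, the survivin subunit of the Aurora B complex, differed by 0.20, and Cdc20, the activator of the anaphase-promoting complex, by 0.87. None of these was called, with adjusted p from 0.238 to 0.721. Without HFHS 1 the difference was 0.23 for Bub1b, 0.32 for Aurkb, 0.12 for Birc5 and 0.41 for Cdc20. The checkpoint and mitotic kinases Bub1, Ttk and Plk1 were below the filter. Bub1 had 0.0536 to 0.321 CPM on LFLS and 0.250 to 0.813 CPM on HFHS. Ttk had 0.0786 to 0.641 CPM on LFLS and 0.214 to 0.930 CPM on HFHS. Plk1 had 0.120 to 0.550 CPM on LFLS and 0.153 to 0.935 CPM on HFHS. For Bub1 and Plk1, HFHS 1 had the highest value of all libraries.

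Promoters of 3 spindle and chromosome members are shown because Cenpf was the called member, Mki67 had the largest difference of the tested members and Top2a followed it over libraries. They are from the same RefSeq build, all on the minus strand, at chr1:189688037-189688336 for Cenpf, chr7:135716330-135716629 for Mki67 and chr11:99024140-99024439 for Top2a, with capitals as above.
Cenpf: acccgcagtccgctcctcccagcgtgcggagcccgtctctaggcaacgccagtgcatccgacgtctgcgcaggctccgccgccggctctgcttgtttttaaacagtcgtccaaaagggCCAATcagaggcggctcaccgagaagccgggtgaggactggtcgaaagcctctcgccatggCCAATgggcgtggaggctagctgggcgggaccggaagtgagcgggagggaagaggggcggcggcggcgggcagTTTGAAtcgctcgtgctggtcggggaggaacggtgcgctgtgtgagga
Mki67: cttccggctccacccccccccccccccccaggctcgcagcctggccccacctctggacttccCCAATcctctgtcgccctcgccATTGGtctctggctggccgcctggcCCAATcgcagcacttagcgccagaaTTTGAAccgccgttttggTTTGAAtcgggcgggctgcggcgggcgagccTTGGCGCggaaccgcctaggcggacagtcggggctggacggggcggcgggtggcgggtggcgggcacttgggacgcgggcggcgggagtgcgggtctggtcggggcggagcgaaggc
Top2a: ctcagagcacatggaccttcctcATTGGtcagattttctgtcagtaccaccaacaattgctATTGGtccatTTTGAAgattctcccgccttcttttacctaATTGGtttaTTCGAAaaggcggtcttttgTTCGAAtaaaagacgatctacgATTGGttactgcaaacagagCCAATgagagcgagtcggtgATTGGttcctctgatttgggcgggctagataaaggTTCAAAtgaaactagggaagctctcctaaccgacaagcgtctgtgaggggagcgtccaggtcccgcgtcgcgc
CHR element letters occurred in 14 of 18 promoters of the members that act in S, G2 and M phase and mitosis, 2 of 10 promoters of replication and nucleotide synthesis members and 19.2% of all 32851 promoters. CCAAT letters occurred in 16 of the 18 and 8 of the 10, against 37.4% of all promoters. E2F site letters were found in 3 of the 18. Of the 42 members, 34 had an entry in the table, 38 promoters in all, and a match of letters is a description and no measure of binding.

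Cenpf had 0.471, 1.01, 0.625, 0.818, 0.961, 0.642 and 0.832 CPM in LFLS 1 to 7. In HFHS 1 to 7 it had 2.52, 1.49, 1.08, 1.07, 1.20, 1.53 and 1.37 CPM. The groups did not overlap, the highest LFLS library, LFLS 2, lying just under the lowest HFHS library, HFHS 4. Means were 0.766 ± 0.195 (SD, n = 7) and 1.47 ± 0.501 (SD, n = 7), from 16 to 124 counts per library. The difference was 0.97 ± 0.23 (SE), with an adjusted p of 0.0335 by edgeR's quasi-likelihood test, at 1.14 within title number 1 and 0.77 within title number 2. The call was not held by every set of libraries. Leaving out LFLS 3, LFLS 4, LFLS 7, HFHS 1, HFHS 2, HFHS 5, HFHS 6 or HFHS 7 gave an adjusted p between 0.0505 and 0.0747, with a difference of 0.77 to 1.01, and DESeq2 gave 0.115.

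Mki67, the gene of the Ki-67 protein that coats mitotic chromosomes and is used to count dividing cells, had 1.75 to 3.27 CPM with a median of 2.93 on LFLS. On HFHS it had 2.28 to 13.4 CPM with a median of 4.74. HFHS 1 stood far above the rest, and HFHS 4, the lowest on its diet, lay below the LFLS median. Means were 2.64 ± 0.545 (SD, n = 7) and 5.51 ± 3.60 (SD, n = 7). The difference was 1.07 ± 0.31 (SE), the largest of the tested members, with an adjusted p of 0.0703 from edgeR, at 1.17 within title number 1 and 0.95 within number 2. Without HFHS 1 it was 0.67 with an adjusted p of 0.0977, without HFHS 4 it was 1.20 with an adjusted p of 0.0376, and blocking on the title number gave 0.0435.

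**Figure D2:**
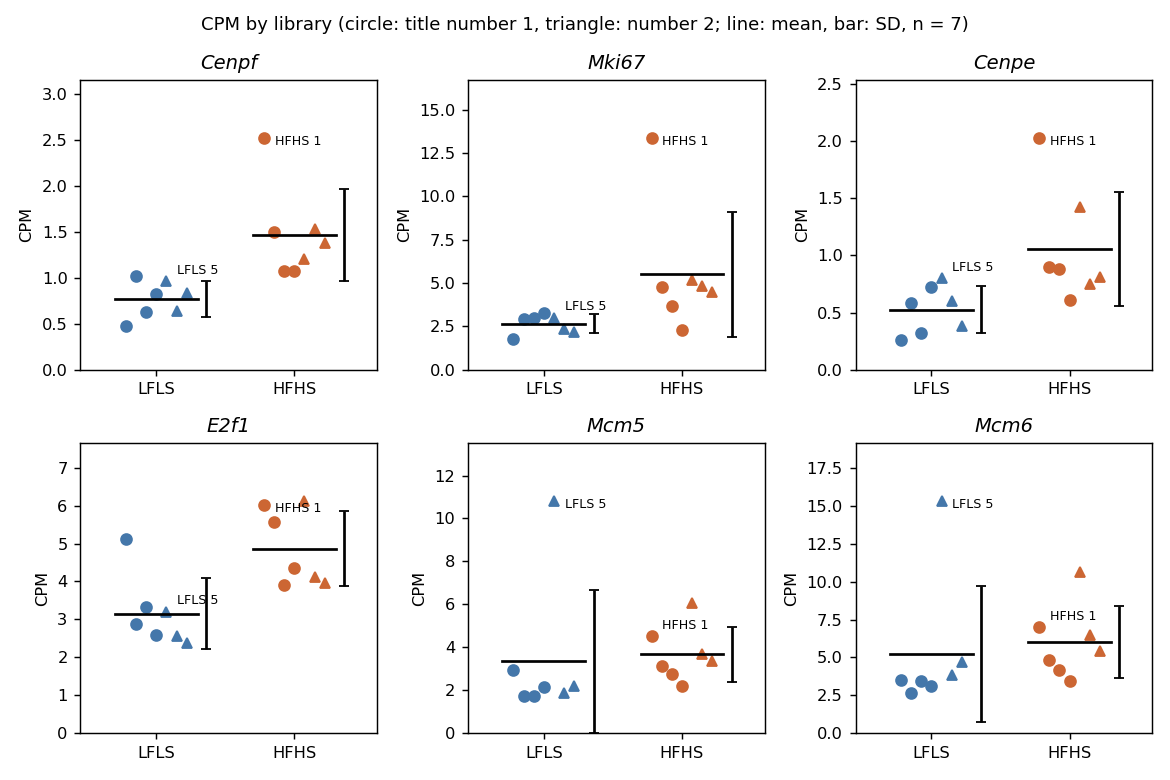
Level in CPM of 6 members in each library, LFLS beside HFHS, with the group mean and SD as a bar; HFHS 1 and LFLS 5 are labelled. Cenpf is the panel without overlap of the diets, HFHS 1 is at 13.4 CPM for Mki67 and LFLS 5 at 10.8 CPM for Mcm5.

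Cenpe, the kinetochore motor that moves chromosomes to the spindle's middle, had 0.262 to 0.801 CPM with a median of 0.587 on LFLS and 0.606 to 2.03 CPM with a median of 0.880 on HFHS. All 7 HFHS values exceeded the LFLS median, with some overlap. The difference was 1.06 ± 0.31 (SE), adjusted p 0.0785 in edgeR, and 0.79 without HFHS 1.

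Prc1, which bundles microtubules between the separating chromosomes, had 0.681 to 1.41 CPM with a median of 0.960 on LFLS and 1.12 to 2.66 CPM with a median of 1.72 on HFHS. The 2 ranges overlapped, and HFHS 1 was again the highest. The difference was 0.73 ± 0.25 (SE), adjusted p 0.119, at 0.97 within title number 1 and 0.47 within number 2. Its gene overlaps Rccd1.

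Tpx2, the activator of Aurora A on the spindle, had 0.236 to 0.753 CPM with a median of 0.454 on LFLS and 0.458 to 2.07 CPM with a median of 0.729 on HFHS. HFHS 1 was the high library, and the ranges overlapped. The difference of 0.99 ± 0.36 (SE), adjusted p 0.142, was 0.57 with an adjusted p of 0.295 when HFHS 1 was left out.

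Kif11, the motor that pushes the spindle poles apart, had 0.812 to 1.68 CPM with a median of 1.34 on LFLS and 1.10 to 4.73 CPM with a median of 1.64 on HFHS. Here the high library was HFHS 6, not HFHS 1, and the ranges overlapped. The difference was 0.76 ± 0.29 (SE), adjusted p 0.163 in the quasi-likelihood test, and 0.44 with an adjusted p of 0.355 without HFHS 6.

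Top2a, the topoisomerase that untangles replicated chromosomes, had 1.05 to 3.68 CPM with a median of 1.65 on LFLS, highest in LFLS 5, and 1.14 to 7.44 CPM with a median of 2.95 on HFHS, highest in HFHS 1. The difference was 0.88 ± 0.34 (SE) with an adjusted p of 0.173, and without HFHS 1 it was 0.53 with 0.345. Nusap1, a microtubule-binding protein of the spindle, differed by 0.38, and Kif20a, a motor of the final cell separation, by 0.26, with adjusted p of 0.260 and 0.333. Both overlap a protein-coding neighbour.

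Levels of Mki67 and Top2a followed each other over the 14 libraries, with a Pearson r of 0.89 (permutation p 4e-05, adjusted over 4 pairs 0.00016) and a Spearman rho of 0.83 (permutation p 0.00042, adjusted 0.00168). Without HFHS 1 and LFLS 1, the libraries farthest from the Mki67 median, r was 0.75 (adjusted permutation p 0.0287). It was 0.96 within title number 1 (exact permutation p 4.96e-05) and 0.70 within number 2 (exact permutation p 0.143). Within diets it was 0.56 for LFLS (exact permutation p 0.184) and 0.97 for HFHS (exact permutation p 0.00456). With Mcm5 the Pearson r of Mki67 was 0.41 (adjusted permutation p 0.141) and the Spearman rho 0.60 (adjusted permutation p 0.0480), and without LFLS 5 the Pearson r was 0.68 (adjusted permutation p 0.0201). With Ccnd1 the Pearson r was 0.44 (adjusted permutation p 0.141) and rho 0.42 (adjusted permutation p 0.14). With Cdkn1a r was 0.52 (adjusted permutation p 0.101) and rho 0.46 (adjusted permutation p 0.136), and r was 0.18 without the 2 farthest libraries. That relation passed the threshold without LFLS 5, at 0.58 with an adjusted permutation p of 0.0444, or without LFLS 7, at 0.67 with an adjusted permutation p of 0.0172. Its r was 0.88 within title number 1 (adjusted exact permutation p 0.0184) and 0.10 within number 2, and 0.70 within HFHS (adjusted exact permutation p 0.0127) and 0.26 within LFLS. For Mcm5 the r with Mki67 was 0.68 within title number 1, 0.42 within number 2, 0.68 within HFHS and 0.08 within LFLS. For Ccnd1 it was 0.38, 0.74, 0.08 and 0.29 in the same order, and none of these r values for Mcm5 and Ccnd1 passed the threshold. The Spearman rho with Mcm5 did pass within HFHS, at 0.93 (adjusted exact permutation p 0.0246). With Cdkn1a rho passed within HFHS, at 0.89 (adjusted exact permutation p 0.0246). Within title number 1 the rho with Cdkn1a did not pass, at 0.64 (adjusted exact permutation p 0.192).

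Some libraries held many of the extreme values. HFHS 1 was the highest of 14 libraries for 20 of the 42 members, against 12.5% of all tested genes, and LFLS 5 for 8 members, against 10.6%. The members concerned differed. HFHS 1 was highest for 7 of 9 spindle and chromosome genes and 5 of 8 mitotic kinases and checkpoint genes. It was also highest for Ccna2, Ccnb1, Ccnb2 and Cdk1. For the spindle group its median log2 difference from the middle of the other HFHS libraries was 0.97. LFLS 5 was highest for 7 of 8 replication genes, with a median of 1.26 above the other LFLS libraries, and its median for the spindle group was 0.42. HFHS 1 had a median of 0.36 for the replication group. At the low end, LFLS 1 was the lowest of 14 libraries for 16 members, against 23.8% of all tested genes, among them 8 of 9 spindle and chromosome genes. The median diet difference of the spindle and chromosome genes was 0.57 without HFHS 1, 0.78 without LFLS 1 and 1.03 without LFLS 5. Without HFHS 1 and LFLS 5 it was 0.70, and all 9 were above 0 in each. For the 7 tested replication genes the median was 0.11 with all libraries, 0.05 without HFHS 1 and 0.11 without LFLS 1. It rose to 0.36 without LFLS 5 and was 0.28 without HFHS 1 and LFLS 5.

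**Figure D3:**
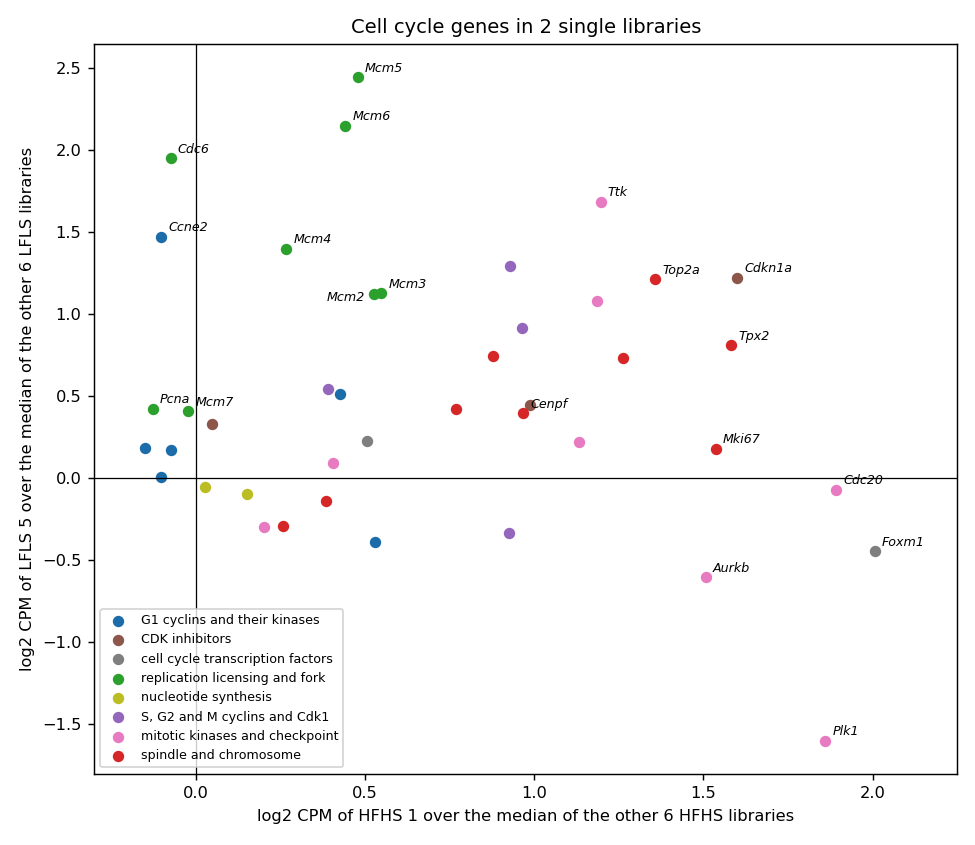
Each point is a member: the horizontal axis is its log2 CPM in HFHS 1 minus the median of the other 6 HFHS libraries, and the vertical axis the same for LFLS 5 and the other 6 LFLS libraries. Mcm5 lies highest, at 2.44, and most spindle and mitotic genes lie to the right of 0.

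**Figure D4:**
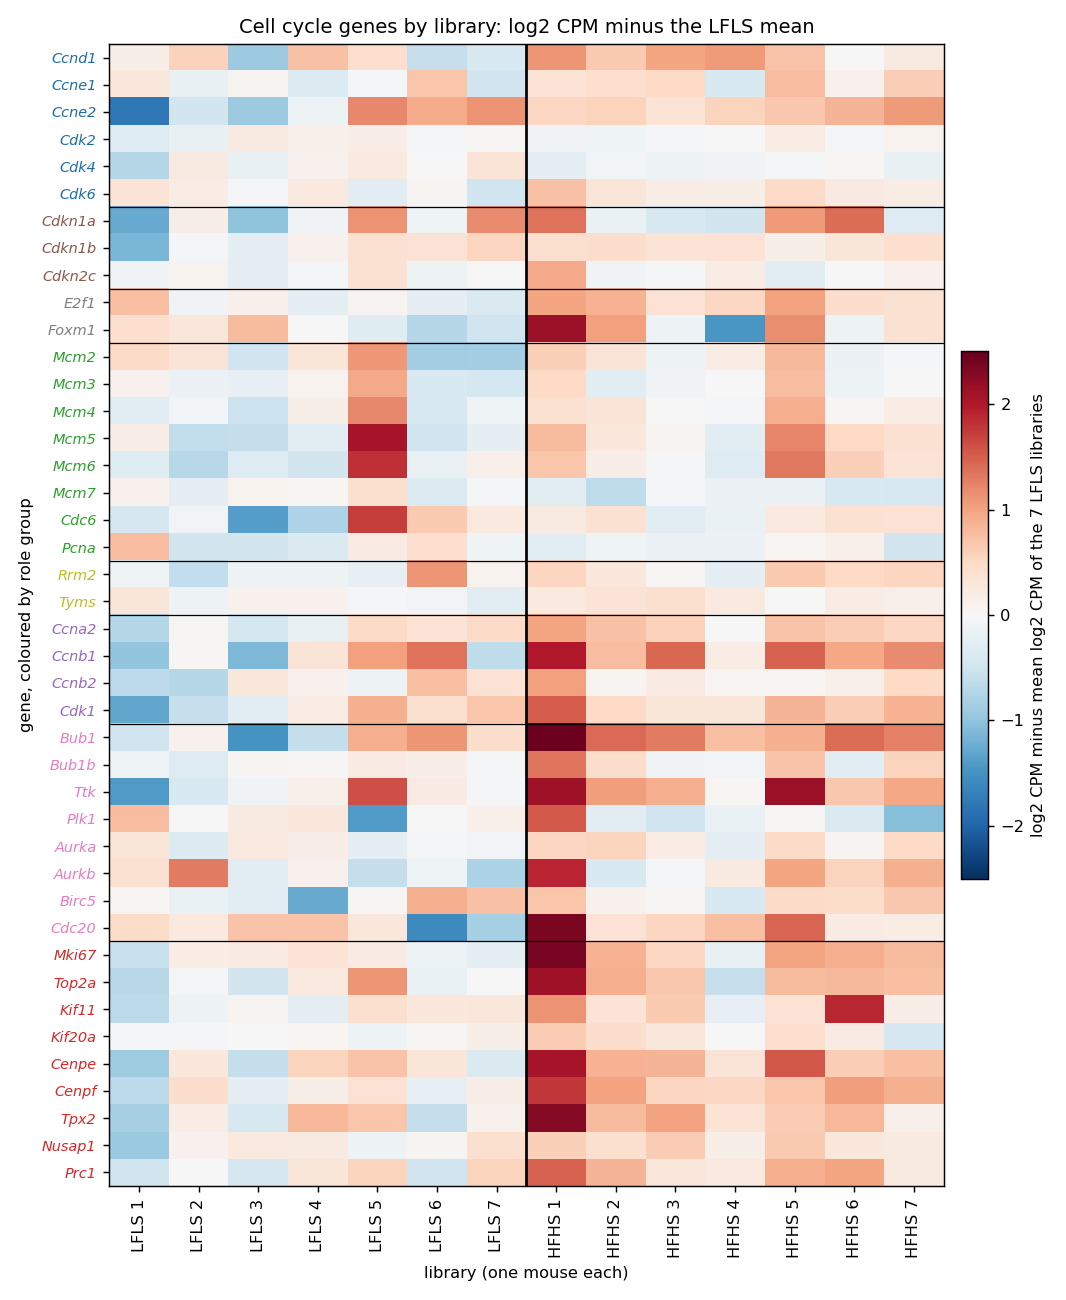
Log2 level of each of the 42 members in each library minus the gene's mean over the 7 LFLS libraries, red for higher and blue for lower, with genes in horizontal bands by role and libraries in columns. HFHS 1 is dark red over the mitotic genes, and LFLS 5 over replication genes, with Mcm5 and Mcm6 darkest.

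Markers of other cells moved with HFHS 1. Its 8 stellate cell markers summed to 751 CPM against 264 to 358 CPM in the other 13 libraries. The collagen gene Col3a1 had 191 CPM there and 12.9 to 50.2 CPM elsewhere, whereas Des, at 5.12 CPM, lay within the range of the others. Its 8 bile duct markers summed to 165 CPM against 52.9 to 91.1 CPM. Its hepatocyte marker sum was the lowest of all, at 65889 CPM against 83092 to 133265 CPM, and 46781 CPM of it was Alb. In HFHS 1 Alb, Apoa1, Cps1, Serpina1c and Fgb were each at their lowest, while Apob, Ttr and Tat lay within the range of the others. Macrophage markers, at 501 CPM, T and NK cell markers, at 3.90 CPM, B cell markers, at 10.3 CPM, and endothelial markers, at 452 CPM, lay within the range of the other 13 libraries, the macrophage and endothelial sums being the highest on HFHS. LFLS 5 had the highest hepatocyte sum, 133265 CPM, and the lowest endothelial sum, 280 CPM. Exocrine pancreas markers, which liver should lack, summed to 1445 CPM in LFLS 2 and 15.8 to 377 CPM in the other 13 libraries. Between diets the hepatocyte markers had a median difference of -0.54 with 6 of 8 below 0, and the stellate cell markers 0.42 with 6 of 8 above 0. An unadjusted p under 0.05 in edgeR was reached by 62.5% of the hepatocyte and 25.0% of the stellate cell markers, against 19.6% of all tested genes. The lowest adjusted p of the hepatocyte markers was 0.0511 in edgeR. In none of these marker lists was a gene called between diets, against 2.81% of all tested genes. No matched marker stood at a count of 1 in all libraries. The part of these cells in the levels of the cell cycle genes was not tested, and without HFHS 1 and LFLS 5 34 of 37 tested members were above 0 and none was called, Cenpf having 0.84 with an adjusted p of 0.0576.

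Within title number 1 the median difference of the members was 0.56 and within number 2 it was 0.19. Of 36 tested members with a value in both, 25 were above 0 in both, 7 in number 1 alone, 1 in number 2 alone and 3 in neither. Over all genes 50.6% were above 0 within number 1 and 50.8% within number 2. The share of all genes above 0 in both was not computed. Called within title number 1 were Ccna2 and Ccne2, against 8.49% of genes, and within number 2 Mki67, against 1.58% of genes. With the title number as a block 4 members were called, Cenpf, E2f1, Ccna2 and Mki67, against 8.94% of genes.

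Under other settings the called members differed. Cenpf alone was called with RLE scaling, against 2.83% of all genes, with library totals, against 3.08%, with only genes of 1 CPM or more in 7 or more libraries, against 3.37%, and with 1 subtracted from every count, against 2.81%. Cenpf passed the 1 CPM filter through HFHS, where its lowest library had 1.07 CPM, against a median of 0.818 CPM on LFLS. The call under that filter therefore adds no support. Limma voom called Cenpf, E2f1 and Ccna2, against 19.0% of genes. None was called by DESeq2, against 1.22%, without the filter on low counts, against 0.651%, or without HFHS 1 and LFLS 5, against 1.15%. With title pairs as a block E2f1 was called, against 3.47%, and Cenpf was not, its adjusted p being 0.0726. Leaving out 1 library at a time called 0 to 2 members, against 0.766% to 4.89% of genes.

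**Figure D5:**
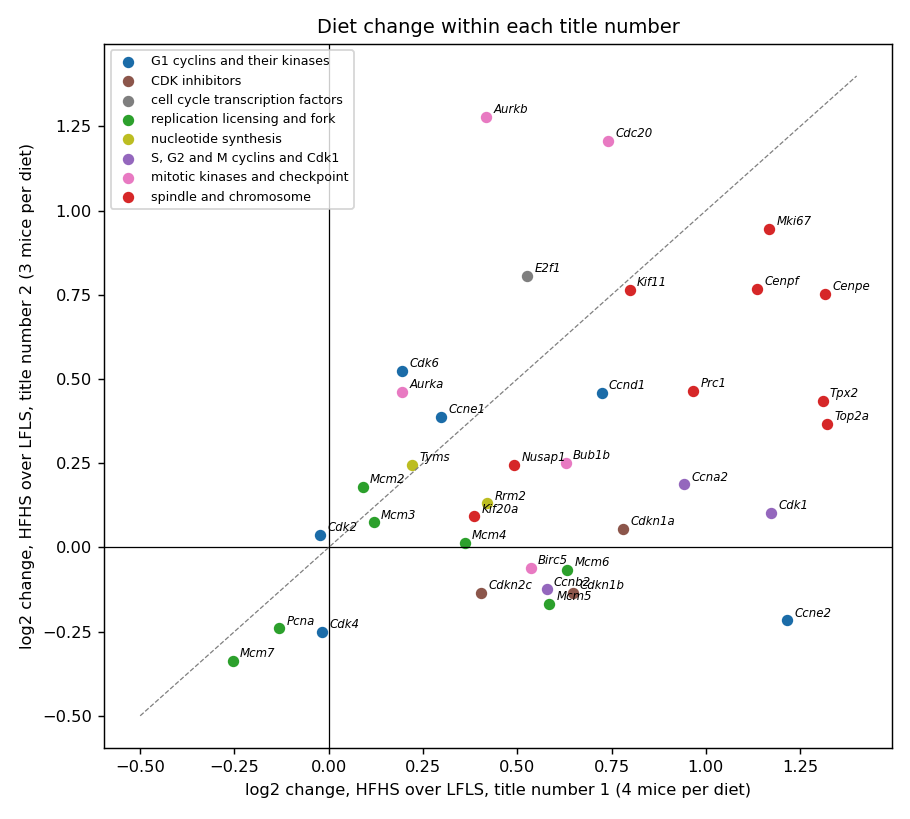
Diet difference of each member within title number 1 (horizontal axis, log2, 4 libraries per diet) against that within title number 2 (vertical axis, log2, 3 libraries per diet). The points in the upper right are the 25 members above 0 in both.

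The wider machinery was read from 138 other genes in 4 lists, of which 128 were tested. Of these, 4 were called higher on HFHS, against 1.37% of all tested genes, and none lower, against 1.44%. Differences were above 0 for 97, against 48.7% of all tested genes, and the median was 0.25. Among 40 other replication genes 2 were called higher, 32 were above 0 and the median was 0.25. Mcm8, a relative of the MCM subunits that works in recombination repair, had 2.20 ± 0.701 CPM on LFLS against 3.83 ± 0.465 CPM on HFHS (SD, n = 7 each), without overlap, which is 0.80 ± 0.18 (SE) higher, adjusted p 0.0332 in edgeR. The Mcm8 call was lost in 9 of 14 fits that each left out 1 library, with adjusted p from 0.0537 to 0.0847.

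Of 44 other mitosis genes 36 were tested, 1 was called higher, 33 were above 0 and the median was 0.41. The called gene was Cdca2, a chromosome protein that recruits a phosphatase at the end of mitosis, with 0.267 ± 0.145 and 0.664 ± 0.244 CPM (SD, n = 7 each), a difference of 1.31 ± 0.30 (SE) and an adjusted p of 0.0333. Its call was lost in 8 of 14 fits without 1 library, with adjusted p up to 0.0697. Ckap2l, of the spindle poles, and Mad2l1, of the spindle checkpoint, differed by 1.17 and 0.83 with adjusted p of 0.0645 and 0.0758.

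Other G1 and Rb-E2F genes showed no shared direction: of 28 tested, 14 were above 0 and 14 below, the median was -0.02 and none was called. The repressor E2f8 had 30.9 ± 11.1 CPM on LFLS against 15.9 ± 4.99 CPM on HFHS (SD, n = 7 each). Its difference was -0.96 ± 0.26 (SE), adjusted p 0.0629 by edgeR and 0.0164 by DESeq2. Its sister repressor E2f7 differed by -0.84 with an adjusted p of 0.118. Wee1, the kinase that holds Cdk1 inactive and is also an output of the circadian clock, had 8.45 ± 4.63 and 16.3 ± 3.74 CPM (SD, n = 7 each), and differed by 0.95 ± 0.29 (SE), adjusted p 0.0872.

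Among 24 p53 target genes 1 was called, 18 were above 0 and the median was 0.22. Ccng1, cyclin G1, a p53 target, had 43.5 ± 9.07 CPM on LFLS against 67.5 ± 8.02 CPM on HFHS (SD, n = 7 each), without overlap. The difference was 0.64 ± 0.13 (SE) with an adjusted p of 0.0216, at 0.93 within title number 1 and 0.27 within title number 2. It was lost in 1 of 14 fits, that without HFHS 2, where the adjusted p was 0.0601, and DESeq2 gave 0.130.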

How the data were processed

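RNA of mouse liver was sequenced from 7 LFLS and 7 HFHS mice, and each sample was grouped by its diet label. Per the submitters' processing notes, the tools were DESeq, TopHat, Bowtie and CASAVA 1.8 and the build was mm9. For the counting tool and annotation the sources used here name nothing. The authors deposited whole-number counts per Ensembl gene, never below 1, with 11120 genes at 1 throughout. Per the file headers, the authors' results table held signal values, which are means of counts divided by size factors over all libraries, the ratio of the group means as a fold change, its log2, and p-values with adjusted p-values. That table was used for gene names and in the closing observations.

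Counts were fitted with edgeR 4.0.16 in R 4.3.3 (TMM scaling, default filter on low counts by diet, quasi-likelihood F test, Benjamini-Hochberg over 17223 genes, threshold 0.05). The SE is the log2 difference divided by the square root of F. The fit was also run on counts simulated without title-number differences or outlying libraries, so that run does not cover these features of the data. The spread is between mice, and title-number differences enter it where no block is used. Correlations used log2 CPM with a prior count of 2 and 100000 permutations, exact within title numbers and diets, two-sided. Alternatives were voom with quality weights (limma 3.58.1), DESeq2 1.42.0, other scalings and filters, subtraction of 1 from counts, title number or title pairs as blocks, each title number alone and each library left out. Promoters were RefSeq's, in GRCm38.p6, matched by symbol; overlaps between genes came from RefSeq annotation. The labels do not state stranded counting, so reads of overlapping genes cannot be told apart; 13 members overlap a protein-coding gene, among them Ccnd1, Ccne2, Cdk2, Foxm1 and Cdc20.

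Members with full statistics are the called member, the 8 with the smallest p, and the member with the highest mean CPM in each of 8 roles; of other lists, called genes and up to 3 with the smallest p. Ccnd1, Ccne2, Cdkn1a, Mcm5, Mcm6, Mcm7, Top2a, Cdk1 and Foxm1 were given more detail after their values were seen. The members and lists were chosen with earlier results of these data known. Of the other lists, 1 called gene is counted but not reported here by name.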

Additional observations from a re-analysis of the deposited data

Results flagged for a closer look

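Within a diet, a member's highest or lowest library was marked where its gap to the nearest other library, divided by the range of the 7, passed Dixon's 95% critical value. This held for 22 of 84 sets of 7 values. The critical value marks about 1 set in 20 only for independent, normally distributed values. The CPM of members that share libraries need not be either. The share over all tested genes was not computed, so no excess over chance is read from the count. HFHS 1 was the library that stood apart in 11 of the 22 sets, with 7.09 CPM for Cdkn2c, 1.61 for Ccnb2, 2.97 for Cdk1, 0.813 for Bub1, 0.935 for Plk1, 1.14 for Aurkb, 1.83 for Cdc20, 13.4 for Mki67, 7.44 for Top2a, 2.52 for Cenpf and 2.07 for Tpx2. All of these are high values, and all but Cdkn2c belong to genes of G2 phase and mitosis.

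LFLS 5 stood apart in 7 sets, also at the high end. It had 9.29 CPM for Mcm3, 12.7 for Mcm4, 10.8 for Mcm5, 15.3 for Mcm6, 0.921 for Cdc6, 0.641 for Ttk and 3.68 for Top2a. Single sets were marked for HFHS 5 with 10.2 CPM of Mcm4, LFLS 1 with 5.13 CPM of E2f1, LFLS 2 with 0.747 CPM of Aurkb and LFLS 6 with 8.98 CPM of Rrm2.

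Among the wider lists, 2 genes had a diet difference that depended on the title number in edgeR's interaction test, and both were chosen after their values were seen. Ncapg, a condensin subunit that packs chromosomes, had a difference of 1.39 within title number 1 and 0.12 within number 2, an interaction of -1.27 with an adjusted p of 0.0361. Btg2, an antiproliferative p53 target, had 0.07 and -0.85, an interaction of -0.91 with an adjusted p of 0.0473.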

How the results depend on the processing

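The number of members called, all of them higher on HFHS, was 1 in the reported fit. It was 0 by DESeq2, 3 by limma voom, 0 without a filter on low counts, 4 with the title number as a block, 2 within title number 1 and 0 without HFHS 1 and LFLS 5, the last chosen after seeing the data. Leaving out 1 library at a time gave 0 to 2 called members, no member was called lower in any of these, and the median difference ran from 0.23 to 0.50. The 7 title pairs share the title number and a letter code, neither of which the labels explain, and their deviations correlated at -0.07 to 0.41, so they were not taken as paired. With these pairs as a replicate block 1 member was called, E2f1 with an adjusted p of 0.0341, while Cenpf had 0.0726 and Mki67 0.148. Of 336 recomputed differences of the members given in full, 310 kept their direction and side of the threshold, 10 gained a call, 14 lost one and 2 changed sign: Pcna at 0.13 by limma voom and Cdkn1b at -0.13 within title number 2. Leaving out libraries gave an r of Mki67 of 0.81 to 0.96 with Top2a, 0.37 to 0.68 with Mcm5, 0.28 to 0.57 with Ccnd1 and 0.38 to 0.67 with Cdkn1a. Depth limits the low members, since Cenpf rests on 16 to 124 counts per library and 5 members on 46 or fewer.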

Other observations

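The 5 members below the filter were fitted without it, where adjusted p-values from edgeR run over more genes. Bub1, a checkpoint kinase, had a difference of 1.30 ± 0.37 (SE) with an adjusted p of 0.118, Ccnb1 of 1.04 ± 0.38 with 0.228 and Ttk, the Mps1 kinase, of 1.04 ± 0.40 with 0.258. Plk1, a kinase of mitotic entry, and the helicase loader Cdc6 stood at 0.02 and -0.10.

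No member of the 42 had an adjusted p under 0.05 in the authors' deposited table, and 7 had an unadjusted p under 0.05 there. The shares over all genes of that table were not computed, so neither count can be set against a background. The authors' deposited table gave Cenpf a fold change of 1.89, a log2 of 0.92, a p of 0.01 and an adjusted p of 0.89, which Bub1 shared and no other member undercut.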
